A study of Mus musculus with 2 samples.

Results

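The 38 genes described here are 15 targets of the hypoxia response, 22 genes of glycolysis and of glucose and lactate transport, and Hif1a, the oxygen-regulated subunit of the response's transcription factor. They were taken by gene symbol from a list, out of 56941 genes in each count table, and every one of them had at least 1 unique molecular identifier (UMI) in both libraries. The data are single-cell RNA libraries of subcutaneous tumours grown in C57BL/6 mice, with the genotype labelled WT, from MC38 cells, which the labels call colon adenocarcinoma cells. The cells were a pool, not a single clone, transduced with a lentivirus that carried either SPP1 (osteopontin, a secreted glycoprotein) or a control vector. From day 7 all mice received anti-PD-1, which blocks a brake on T cells, by 10 mg/kg injections given 2 times per week over 2 weeks, and 1 tumour of each group was sequenced. With 1 animal per group, a library difference below is a difference between single tumours, without replicates and without a test. The intervals given are exact 95% intervals of counting error alone.

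When oxygen is short, prolyl hydroxylases of the Egln family stop marking HIF-1 alpha for destruction, and the stabilised protein, paired with ARNT, binds DNA at a short core sequence and switches on its targets. Those targets include most steps of glycolysis, the glucose importer, the lactate exporter and Pdk1, a kinase that limits the entry of pyruvate into the tricarboxylic acid cycle. Tumours are known for oxygen-poor regions away from vessels, and both cancer cells and macrophages run this programme there. Hif1a is regulated mainly through its protein, so its mRNA level need not follow the activity of the pathway.

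The libraries held 14317 (vector) and 14029 (SPP1) cell barcodes with medians of 10277 and 10218 UMIs, and 93 barcodes occurred in both. After filtering and removal of predicted doublets, 3 classes were large enough to describe. The largest was a compartment of 10344 and 10353 cells that carried Hmga2, Sox9, Tafa1, Hoxa9, Prrx1 and Col3a1. None of 8 epithelial markers, Epcam and the keratins Krt8, Krt18 and Krt19 among them, reached 10 CPM there (summed level 2.35 and 2.06 CPM), so the epithelial label of the cell line was not borne out and the compartment is called by its genes. Macrophage/monocyte-like cells numbered 924 and 749, and T and NK-like cells 162 and 98. Of the 17 compartment clusters, 3 (numbers 4, 17 and 18, led by Magea9 or Pcdh9) stood apart, with 154 cells (1.49%) of the compartment in the vector library and 2596 (25.1%) in the SPP1 library. Compartment markers were found in macrophages at 2.95% to 5.23% of their compartment level, and in T and NK-like cells at 2.00% to 7.46%, a level that free RNA and undetected doublets can give. All 38 members lay above that level in macrophages, taking both libraries. In T and NK-like cells Car9, P4ha2, Pfkm and Eno2 did not in either library, and Adm and Pfkfb4 in 1 of them. CPM here are UMIs per 1000000 UMIs of a class in a library, without correction for gene length, so levels are compared between classes and not between genes. Isoform shares below are shares of UMIs of different genes. They are read across classes, and not as amounts of one isoform against another.

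In both tumours the hypoxia and glycolysis genes were not carried by the Hmga2+ Sox9+ compartment alone: macrophages as a class held more of most of them. With a difference called where it passed 2-fold in the same direction in both libraries, 3 of 15 hypoxia targets were higher and 1 was lower in macrophages than in the compartment, and 9 of 22 glycolysis and transport genes were higher and 1 was lower. Over the 13507 genes with at least 100 UMIs, 12.3% were called higher and 24.0% lower. The median log2 ratio of the hypoxia targets was 0.48 and that of the glycolysis genes 0.61, beside -0.48 over all those genes. In cells thinned to 1000 UMIs the hypoxia median was 0.29. With libraries joined, the summed hypoxia targets stood at 2451 and 3015 CPM in macrophage clusters 0 and 3. The other macrophage clusters stood at 1153 to 1428, within the 991 to 2044 of the compartment clusters.

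**Figure D1:**
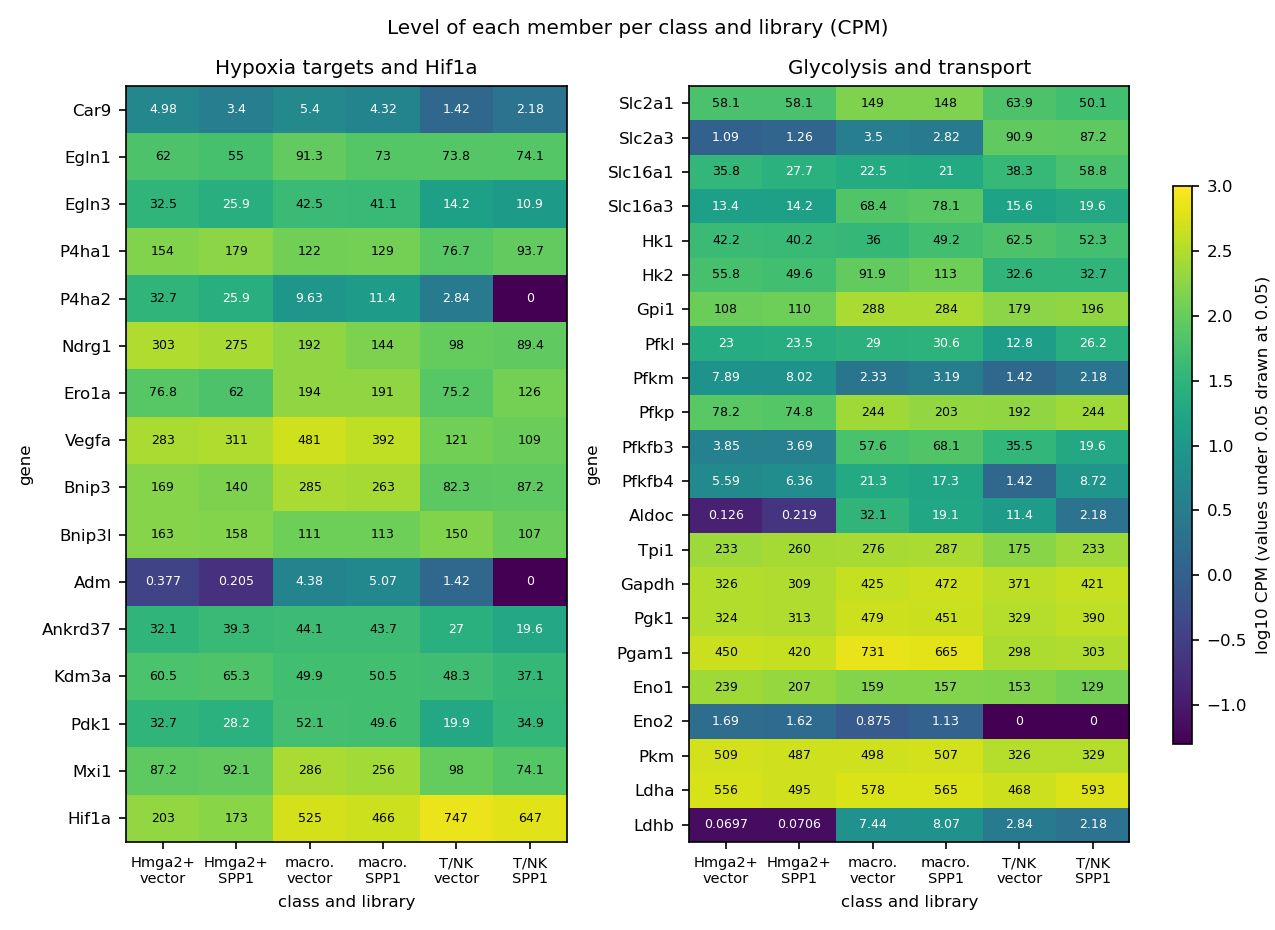
Levels of the 38 members in the 3 classes and both libraries, hypoxia targets with Hif1a in one panel and glycolysis and transport in the other. Each cell of the map gives the CPM of a class in a library, and the colour follows the level on a log scale from dark (low) to light (high): Aldoc, Ldhb and Pfkfb3 are dark in the compartment and lighter in macrophages, and Slc2a3 is light in T and NK-like cells and dark in the other classes.

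Hif1a itself was lowest in the compartment, at 203 CPM in the vector library and 173 in the SPP1 library, higher in macrophages at 525 and 466, and highest in T and NK-like cells at 747 and 647. Its log2 ratio over the compartment was 1.37 and 1.43 in macrophages and 1.88 and 1.90 in T and NK-like cells. The order of the 3 classes was the same in both tumours but did not hold for every T and NK-like cluster. With libraries joined, clusters 4 and 7 (44 and 28 cells) stood at 1967 and 1472 CPM, clusters 2, 5 and 6 at 480 to 548, and cluster 1 (65 cells) at 307, while macrophage clusters ranged from 388 to 627. Cluster 7 had the myeloid genes Il1b, Mmp12 and Cd14 among its leading genes, beside Dthd1 and Ntrk3. The part of myeloid RNA in its Hif1a level was not tested.

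Among the oxygen sensors, Egln1, the main hydroxylase of HIF-1 alpha, stood at 62.0 and 55.0 CPM in the compartment and at 91.3 and 73.0 in macrophages. Egln3, a hydroxylase that is itself a hypoxia target, stood at 32.5 and 25.9 CPM in the compartment, 42.5 and 41.1 in macrophages, and 14.2 and 10.9 (10 and 5 UMIs) in T and NK-like cells. Neither hydroxylase passed 2-fold in macrophages, and Egln3 was called lower in T and NK-like cells.

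The targets that stood out in macrophages serve secretion, peptide signalling and transcription. Ero1a, which drives the formation of disulphide bonds in the endoplasmic reticulum, was at 194 and 191 CPM in macrophages against 76.8 and 62.0 in the compartment (log2 ratio 1.34 and 1.62). Mxi1, a MAX partner that opposes MYC, was at 286 and 256 CPM against 87.2 and 92.1 (1.71 and 1.47). Adm, the gene of the vasodilator peptide adrenomedullin, was called higher too, but from 30 and 27 UMIs, of which the 3 highest macrophages held 60.0% and 70.4%. Vegfa, the main angiogenic growth factor, was at 481 and 392 CPM in macrophages against 283 and 311, and Bnip3, a mitophagy receptor, at 285 and 263 against 169 and 140. Both were higher in macrophages of each tumour as a class and under 2-fold. With libraries joined, Vegfa was at 781 and 644 CPM in macrophage clusters 0 and 3 and at 132 to 305 in the others.

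One target was called lower in macrophages. P4ha2, a subunit of collagen prolyl 4-hydroxylase, was at 32.7 and 25.9 CPM in the compartment and 9.63 and 11.4 in macrophages (log2 ratio -1.76 and -1.18), and P4ha1, its paralogue, was at 154 and 179 against 122 and 129 and was not called. Ndrg1, a stress-response gene, was also lower in macrophages, at 192 and 144 CPM against 303 and 275, without passing 2-fold in either tumour. Car9, the surface carbonic anhydrase that exports acid equivalents, was rare in both classes, at 4.98 and 3.40 CPM in the compartment and 5.4 and 4.32 in macrophages. The remaining targets, Bnip3l (a mitophagy receptor), Ankrd37, Kdm3a (a histone demethylase) and Pdk1, lay within 2-fold of the compartment in macrophages, with levels between 28.2 and 163 CPM over the 2 classes.

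In T and NK-like cells 3 of the 13 measured hypoxia targets were called lower than in the compartment (Egln3, Ndrg1 and Vegfa) and none was called higher, with a median log2 ratio of -0.63 beside -0.27 over all genes, of which 8.45% were called higher and 14% lower. Ndrg1 was at 98.0 and 89.4 CPM there (-1.63 and -1.62) and Vegfa at 121 and 109 (-1.23 and -1.52). P4ha2 had 2 UMIs and 0 UMIs. Of 20 measured glycolysis genes 3 were called higher (Slc2a3, Pfkp and Pfkfb3) and none lower, with a median of 0.09. Macrophage marker genes summed to 741 and 427 CPM in these cells, against 16561 and 21242 in macrophages and 39.8 and 46.4 in the compartment, and their part in the T and NK-like values was not tested.

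The classes differed in which isoform of a step they used. For glucose import, Slc2a1 (GLUT1) was at 58.1 and 58.1 CPM in the compartment, 149 and 148 in macrophages, and 63.9 and 50.1 in T and NK-like cells. Slc2a3 (GLUT3), a high-affinity importer, was at 1.09 and 1.26 CPM in the compartment, 3.5 and 2.82 in macrophages, and 90.9 and 87.2 in T and NK-like cells (64 and 40 UMIs). Its share of the UMIs of both importers was thus 58.7% and 63.5% in T and NK-like cells, beside 1.84% and 2.12% in the compartment and 2.29% and 1.87% in macrophages. In cells thinned to 1000 UMIs, 10.1% and 11% of T and NK-like cells had a Slc2a3 UMI, against 0.0971% and 0.165% of compartment cells and 0.231% and 0.585% of macrophages. Over the T and NK-like clusters, with both libraries joined, it ranged from 55.5 to 155 CPM, so every one of these clusters lay above the compartment and macrophage levels.

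For lactate, Slc16a1 (MCT1), which carries it both ways, and Slc16a3 (MCT4), the exporter of strongly glycolytic cells, the balance differed between classes. Slc16a3 held 27.3% and 33.9% of their joint UMIs in the compartment and 75.3% and 78.8% in macrophages, where its level was 68.4 and 78.1 CPM against 13.4 and 14.2. In T and NK-like cells it held 11 of 38 and 9 of 36 UMIs, or 28.9% (15.4% to 45.9%) and 25% (12.1% to 42.2%).

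The first step of glycolysis used 3 hexokinases. Hk2, the inducible one, held 56.7% and 55.0% of hexokinase UMIs in the compartment and 46.7% and 49.7% in macrophages. Hk1, the constitutive one, held 42.9% and 44.6% in the compartment, 18.3% and 21.6% in macrophages, and 63.8% and 61.5% in T and NK-like cells (44 and 24 UMIs). The macrophage remainder was Hk3, which is not a member and held 34.9% and 28.7% there against 0.453% and 0.447% in the compartment.

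Most phosphofructokinase UMIs were of Pfkp in every class, with shares of 71.7% and 70.3% in the compartment, 88.6% and 85.7% in macrophages, and 93.1% and 89.6% in T and NK-like cells. Pfkm, the muscle isoform, was called lower in macrophages, at 2.33 and 3.19 CPM against 7.89 and 8.02. Pfkl, the liver isoform, stood at 23.0 and 23.5 CPM in the compartment and 29.0 and 30.6 in macrophages. Of the enzymes that set the activator fructose 2,6-bisphosphate, Pfkfb3 was at 3.85 and 3.69 CPM in the compartment and 57.6 and 68.1 in macrophages (log2 ratio 3.90 and 4.21), and Pfkfb4 at 5.59 and 6.36 against 21.3 and 17.3. The Pfkfb3 share went from 40.8% and 36.7% to 73.0% and 79.8%, and T and NK-like cells, with 25 of 26 and 9 of 13 UMIs, were also mostly Pfkfb3.

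Lower down the pathway the compartment was almost free of the second isoform. Aldoc, the brain-type aldolase, had 18 and 31 UMIs in the whole compartment (0.126 and 0.219 CPM) and 32.1 and 19.1 CPM in macrophages, or 6.63% and 3.79% of aldolase UMIs beside Aldoa. Ldhb, the lactate dehydrogenase subunit that favours lactate use, had 10 and 10 UMIs in the compartment, 0.0125% and 0.0143% of the Ldha and Ldhb UMIs, against 51 and 43 UMIs, or 1.27% and 1.41%, in macrophages. Ldha, the subunit that favours lactate formation, was near even across these classes at 556 and 495 CPM in the compartment and 578 and 565 in macrophages. Eno2 held at most 0.779% of enolase UMIs in any class and library, and no UMI of it was seen in T and NK-like cells among 108 and 59 enolase UMIs.

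**Figure D2:**
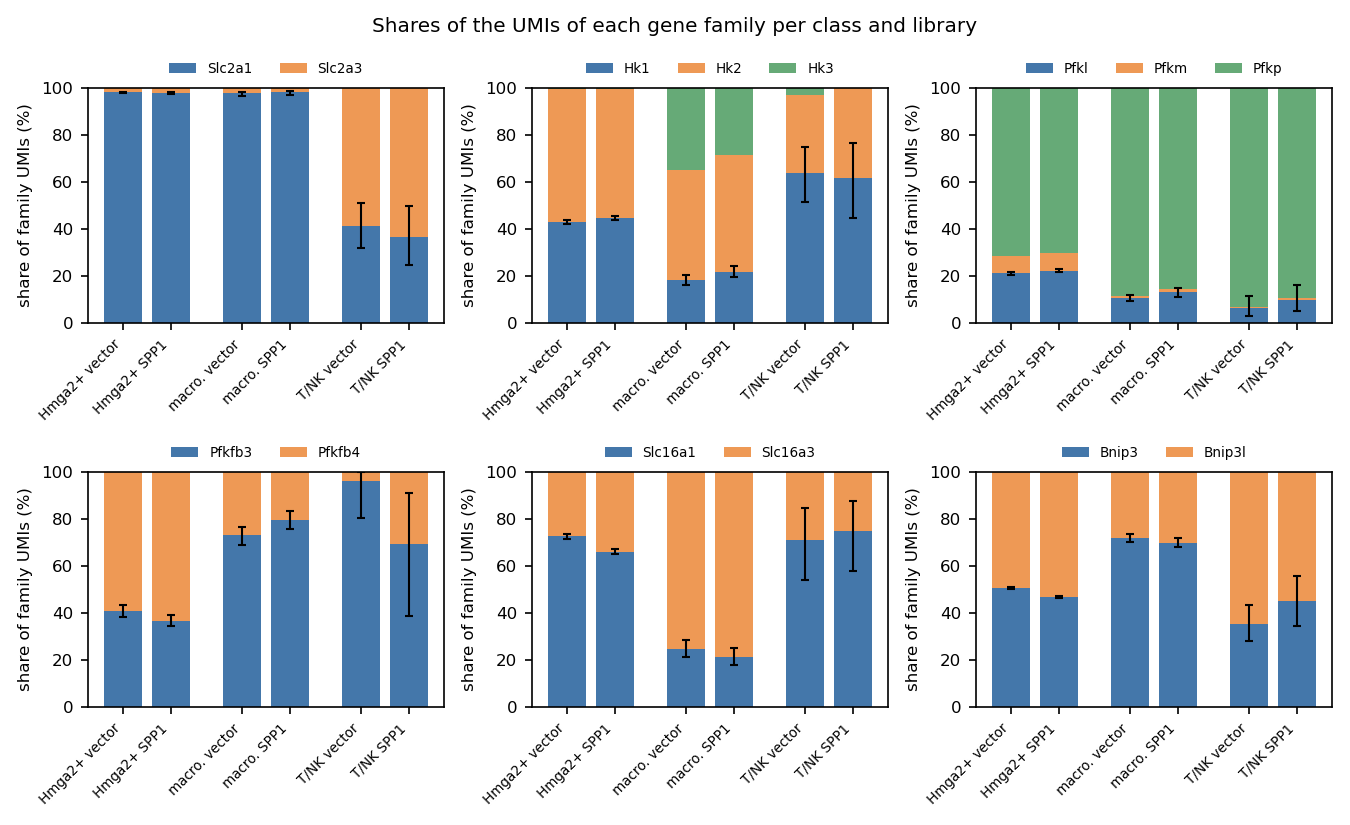
Share of a family's UMIs held by each isoform, in percent, for each class and library, with the 95% Clopper-Pearson interval of the first gene named. Slc2a3 takes 58.7% and 63.5% of the importer UMIs in T and NK-like cells, Slc16a3 75.3% and 78.8% of the lactate carrier UMIs in macrophages, and Hk3 appears mainly in macrophages.

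The shared trunk of the pathway differed less. Gpi1, which isomerises glucose 6-phosphate, was the one trunk gene called higher in macrophages, at 288 and 284 CPM against 108 and 110. Tpi1, Gapdh, Pgk1, Pgam1 and Pkm, which carry the triose steps to pyruvate, were within 2-fold of the compartment in macrophages and in T and NK-like cells. Eno1 was the trunk gene with the lowest ratio in macrophages, at 159 and 157 CPM against 239 and 207. Gapdh, Pgk1, Pgam1, Eno1, Ldha, Tpi1 and Pkm have close copies or pseudogenes, and how shared reads were counted is not given in the sources used here.

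Members also varied within a class. Pooling both libraries, the summed hypoxia targets ranged from 991 to 2044 CPM over compartment clusters and the summed glycolysis genes from 1843 to 4482. The one-sided clusters 4, 17 and 18 were low in particular targets: Car9 was at 0.960, 0.986 and 1.22 CPM and Egln3 at 5.88, 4.27 and 3.26, while cluster 15, led by interferon-induced Ifit genes, held 12.3 and 49.8. Among macrophages, cluster 3, led by Mmp9, Ctsk and Mmp13, had the highest hypoxia sum (3015 CPM) with Slc2a1 at 279 and Bnip3 at 484 CPM. Cluster 5, led by the resident-type genes Fcrls and F13a1, had the lowest (1153 CPM) with Slc2a1 at 74.9. Of the T and NK-like clusters, number 1, lowest in Hif1a, had Klra8 and Gzma among its leading genes, and number 4, the highest, had Il10 and Foxp3.

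To see whether glycolysis genes moved with the hypoxia targets from cell to cell, cells were thinned to 5000 UMIs and scored by their summed UMIs of the 15 targets, and the top 20% was set against the rest. In the compartment 9496 and 9512 cells were scored. The median score was 14 and 13 in the top 20% and 6 in the rest of both libraries. The targets chose these cells, so their own ratios, each from a score of the other 14, are a description: all 15 were called higher, which here means past a ratio of 5 to 4 in both libraries with intervals that exclude 1. Car9 was at 16.0 and 10.6 CPM in the top 20% against 2.55 and 1.81. Egln3 was at 72.6 and 55.1 against 23.3 and 19.4, Bnip3 at 387 and 300 against 121 and 105, and Ankrd37 at 74.2 and 76.6 against 22.5 and 30.8. Adm had the highest ratio, 3.16 and 2.90, from 34 of 51 and 18 of 29 UMIs.

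Glycolysis genes, which took no part in the score, followed it in the compartment. Of 20 with at least 20 UMIs in each library, 14 were called higher and none lower, where 2.96% of all genes were called higher and 5.88% lower. Their median log2 ratio was 0.49 beside -0.02 over all genes. Slc2a1 had the highest ratio of them, at 118 and 99.8 CPM in the top 20% against 44.7 and 48.9 (log2 ratio 1.40 and 1.03). Pgk1, which makes the first ATP of the pathway, was at 539 and 495 CPM against 277 and 273, and Gpi1 at 176 and 171 against 93.0 and 96.5. Ldha was at 827 and 707 CPM against 496 and 448, and the exporter Slc16a3 at 20.3 and 21.0 against 11.9 and 12.7. Gapdh (0.43 and 0.37), Pkm (0.42 and 0.39) and Eno1 (0.44 and 0.33) had small ratios that were still called.

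The other 6 of the 20 were not called. Slc16a1, which held most of its joint UMIs with Slc16a3 in the compartment, was at 35.3 and 28.4 CPM in the top 20% and 35.8 and 27.4 in the rest. Its log2 ratio was -0.02 (-0.13 to 0.08) and 0.05 (-0.07 to 0.17). Pfkm was at 7.63 and 8.47 against 7.85 and 7.93. Pfkfb3 was at 3.82 and 4.28 against 3.86 and 3.58, and Slc2a3 had log2 ratios of 0.11 and 0.20. Pfkfb4 (0.33 and 0.24) and Eno2 (0.32 and 0.66) lay above 0 in both libraries, with an interval that reached 0 in 1 library, and the mean ratio of Eno2 equalled the median of the list. Aldoc had 2 and 4 UMIs in the top 20%, too few for a level, and Ldhb was below the minimum of UMIs. Hif1a mRNA was at 239 and 203 CPM against 195 and 167, a log2 ratio of 0.29 in both libraries that was not called.

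**Figure D3:**
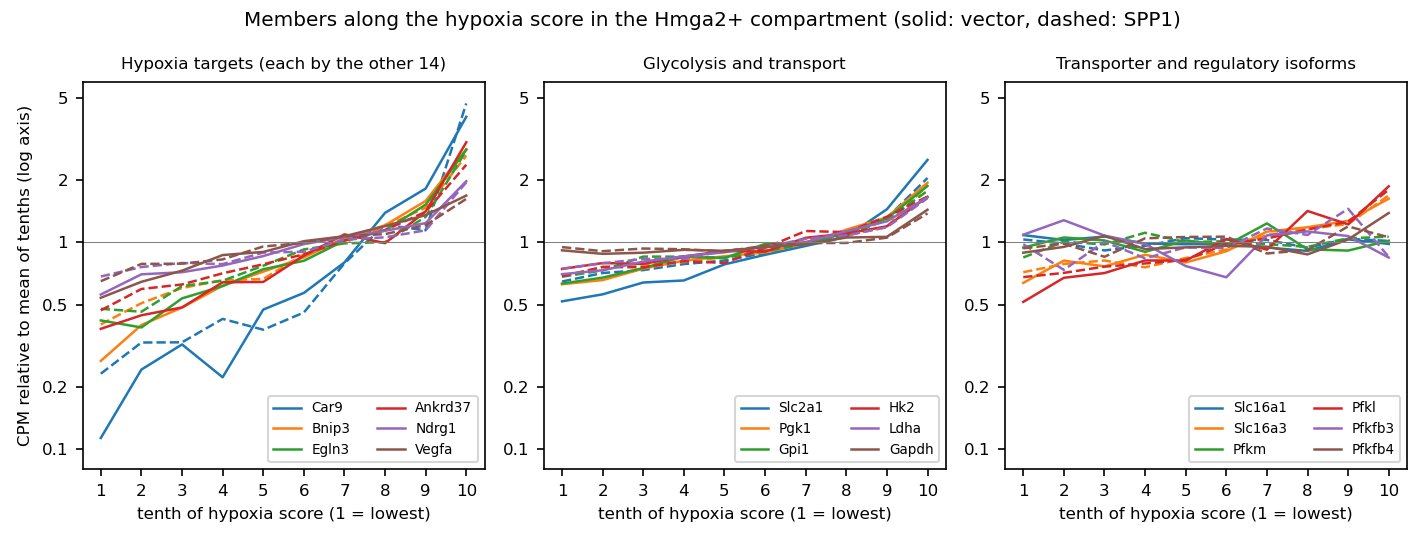
Levels of selected members over 10 equal groups of compartment cells ordered by hypoxia score, relative to the mean of the 10 groups, on a log axis, with solid lines for the vector library and dashed lines for the SPP1 library. Car9 climbs from 0.604 to 21.6 CPM and from 0.833 to 16.9 CPM, Slc2a1 from 31.1 to 150 and from 38.4 to 122, and Slc16a1 stays near level at 38.6 to 35.0 and 28.5 to 28.1.

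Promoter sequences of the members were searched for the short core sequence bound by HIF. Its part in the joint variation of members was not tested. Shown are the 3 targets and the 3 glycolysis genes with the highest ratio along the score and the 2 members with the lowest. Capitals mark ACGTG or GCGTG on either strand, which read CACGT or CACGC on the other, with overlapping matches counted separately. These 5 letters are the core bound by HIF. Each sequence runs from 250 bases before to 50 after a RefSeq transcription start in GRCm38.p6, an earlier build than the GRCm39 of the counts. The coordinates are chr7:110627407-110627706 (plus strand) for Adm, chr4:43506776-43507075 (plus strand) for Car9, chr7:138909457-138909756 (minus strand) for Bnip3 and chr4:119108495-119108794 (plus strand) for Slc2a1. They are chrX:106186850-106187149 (plus strand) for Pgk1, chr7:34230287-34230586 (minus strand) for Gpi1, chr11:78322823-78323122 (plus strand) for Aldoc and chr3:104638414-104638713 (plus strand) for Slc16a1.
Adm: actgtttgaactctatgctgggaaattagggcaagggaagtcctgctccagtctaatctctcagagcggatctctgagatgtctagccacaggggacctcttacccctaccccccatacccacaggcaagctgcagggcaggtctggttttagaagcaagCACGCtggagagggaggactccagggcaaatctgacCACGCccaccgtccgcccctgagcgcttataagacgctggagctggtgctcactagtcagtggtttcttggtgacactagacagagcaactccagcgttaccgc
Car9: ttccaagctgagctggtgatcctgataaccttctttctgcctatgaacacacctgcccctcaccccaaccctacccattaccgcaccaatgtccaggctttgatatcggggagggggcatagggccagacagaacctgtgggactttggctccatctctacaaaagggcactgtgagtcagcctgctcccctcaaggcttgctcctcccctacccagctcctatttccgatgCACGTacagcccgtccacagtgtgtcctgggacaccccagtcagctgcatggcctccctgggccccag
Bnip3: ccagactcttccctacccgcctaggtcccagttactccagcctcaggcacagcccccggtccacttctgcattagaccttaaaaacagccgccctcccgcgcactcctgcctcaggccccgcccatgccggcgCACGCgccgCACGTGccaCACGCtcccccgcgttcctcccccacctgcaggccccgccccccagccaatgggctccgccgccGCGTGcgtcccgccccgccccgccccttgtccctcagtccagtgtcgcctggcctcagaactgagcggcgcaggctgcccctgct
Slc2a1: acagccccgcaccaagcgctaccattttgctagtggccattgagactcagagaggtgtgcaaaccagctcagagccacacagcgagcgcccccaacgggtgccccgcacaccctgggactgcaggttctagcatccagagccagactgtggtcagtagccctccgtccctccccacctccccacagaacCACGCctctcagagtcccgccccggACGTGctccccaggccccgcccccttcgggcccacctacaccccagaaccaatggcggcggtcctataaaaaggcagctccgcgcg
Pgk1: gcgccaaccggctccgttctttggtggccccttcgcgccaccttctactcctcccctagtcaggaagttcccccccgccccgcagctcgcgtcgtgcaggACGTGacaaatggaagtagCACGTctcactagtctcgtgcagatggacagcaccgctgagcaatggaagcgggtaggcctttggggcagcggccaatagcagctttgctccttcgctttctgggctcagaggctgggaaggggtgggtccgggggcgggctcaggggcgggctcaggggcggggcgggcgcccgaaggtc
Gpi1: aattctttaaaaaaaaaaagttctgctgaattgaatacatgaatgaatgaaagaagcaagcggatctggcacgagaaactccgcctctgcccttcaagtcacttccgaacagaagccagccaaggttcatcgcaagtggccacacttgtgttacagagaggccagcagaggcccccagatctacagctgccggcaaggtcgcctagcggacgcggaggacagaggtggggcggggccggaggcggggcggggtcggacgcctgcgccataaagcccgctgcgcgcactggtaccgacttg
Aldoc: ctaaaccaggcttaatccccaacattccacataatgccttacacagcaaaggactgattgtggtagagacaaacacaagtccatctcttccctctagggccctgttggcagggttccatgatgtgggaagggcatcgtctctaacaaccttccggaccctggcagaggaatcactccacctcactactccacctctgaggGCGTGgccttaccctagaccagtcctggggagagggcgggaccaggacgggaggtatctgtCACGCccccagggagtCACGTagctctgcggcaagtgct
Slc16a1: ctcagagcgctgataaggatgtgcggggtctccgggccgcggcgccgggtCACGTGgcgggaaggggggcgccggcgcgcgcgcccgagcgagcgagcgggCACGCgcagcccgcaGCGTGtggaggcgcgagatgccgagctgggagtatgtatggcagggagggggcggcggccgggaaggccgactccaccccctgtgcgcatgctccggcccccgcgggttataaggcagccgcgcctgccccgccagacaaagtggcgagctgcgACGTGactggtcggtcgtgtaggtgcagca
The matches numbered 2 in Adm, 1 in Car9, 5 in Bnip3, 2 in Slc2a1 and 2 in Pgk1. Gpi1 held none in this window. Of the members with the lowest ratios, Slc16a1 held 5 and Aldoc, for the first of its 2 listed starts, 3. Matches therefore stood also in Slc16a1, which was near level along the score, while Aldoc had too few UMIs for a level. Of the 35 members with a promoter in the table (Bnip3l, Slc2a3 and Ndrg1 had none), 28 held at least 1 match, beside 43.8% of all 27025 promoters. The share was 84.6% for hypoxia targets (11 of 13) and 76.2% for glycolysis and transport (16 of 21). Lists outside the members also lay above the share of all promoters, with 66.7% for the tricarboxylic acid cycle and 71.4% for the respiratory chain. A match is a run of letters, and binding was not measured.

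In macrophages the score, from 632 and 503 cells, picked a similar set with its own exceptions. Cluster 1, with 156 and 164 cells, was nearly absent, with 2 and 11 cells deep enough to score. The ratios join all clusters, and the part of cluster make-up in them was not tested. Of 19 measured glycolysis genes 11 were called higher and none lower, with a median of 0.47 beside -0.08 over all genes, of which 6.62% were called higher and 8.01% lower. Slc2a1 was at 277 and 293 CPM in the top 20% against 115 and 110, Hk2 at 121 and 210 (log2 ratio 0.59 and 1.34), and Slc16a3 at 102 and 129 against 58.6 and 64.2. Pfkfb3, which was not called in the compartment, was at 85.6 and 84.9 CPM against 51.7 and 58.7 in macrophages and was called. Whether that ratio differs between the classes was not tested. Pfkfb4 was at 11.1 and 12.7 against 23.4 and 17.2 and was not called. Of the targets that made the score, 11 of 15 were called, and Car9, P4ha1, Kdm3a and Pdk1 were not. Macrophage markers summed to 14246 and 16682 CPM in the top 20% against 17125 and 22321 in the rest.

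T and NK-like cells, thinned to 1000 UMIs, gave 158 and 91 cells. None of 13 measured glycolysis genes was called in either direction there, with a median of 0.07, where 2.49% of all genes were called higher and 2.21% lower. The only target of 8 called was Bnip3l, and the median score was 2 and 3 in the top 20% against 0 and 1. Macrophage markers summed to 1618 and 339.7 CPM in the top 20% against 510 and 439 in the rest, and dissociation stress genes to 5204 and 4813 against 4214 and 3485. Their part in the result was not tested.

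Genes of fixed lists outside the members were read along the same score in the compartment. Of 29 other hypoxia targets 14 were called higher and 1, Selenbp1, lower, with a median of 0.45, led by Higd1a (1.36 and 1.27), Fam162a (1.14 and 1.02) and Ddit4 (0.94 and 1.03). Of 14 other glycolysis genes Aldoa (1.07 and 0.89) and Bsg, the chaperone of the lactate carriers (0.44 and 0.36), were called higher and Pfkfb1 lower, with a median of -0.03. The tricarboxylic acid cycle had 17 of 18 genes below 0 and 3 called lower (Fh1, Idh3a and Sdhb), with a median of -0.23. The respiratory chain had 18 of 19 below 0 and 2 called lower (Cycs and Cox5a), also with a median of -0.23. Of 12 genes of pyruvate fate and 10 of oxygen sensing none was called, and all 7 of the pentose phosphate pathway lay below 0 with none called.

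The score also ran with the cell cycle. In the compartment 15 of 16 proliferation genes were called lower in the top 20%, with a median of -0.72. Their sum was 2715 and 2570 CPM there against 4299 and 3871 in the rest. Dissociation stress genes summed to 7675 and 8360 CPM against 8635 and 8950, and median depth was 12286 and 11599 UMIs against 13223 and 12799. In macrophages 13 of 16 proliferation genes were called lower. Where the top 20% was taken within each compartment cluster, the median of the glycolysis genes was 0.47. Clusters do not hold the cell cycle fixed, and its part in the glycolysis ratios was not tested.

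**Figure D4:**
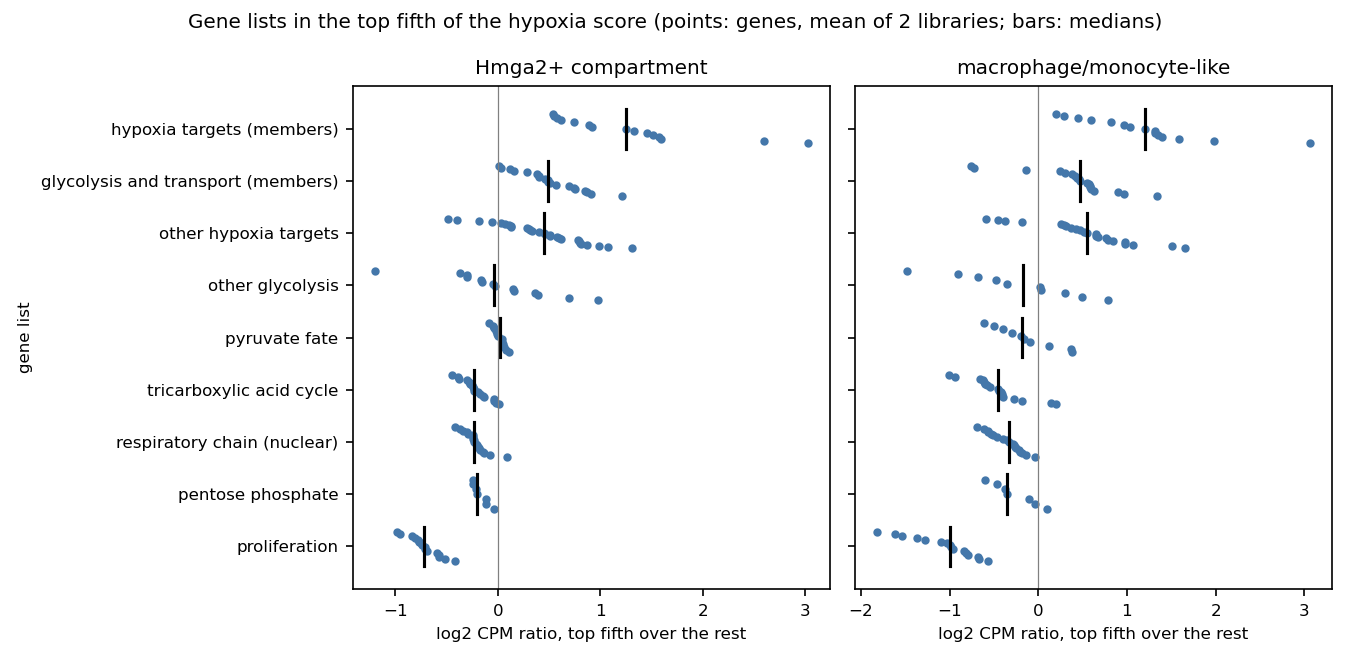
Log2 ratio of the top 20% over the rest by gene list in the compartment and in macrophages, each point a gene of at least 20 UMIs in each library as the mean of the 2 libraries, with a bar at the list's median. Hypoxia targets, which made the score, lie highest, glycolysis members at medians of 0.49 and 0.47, and the proliferation list lowest at -0.72 and -0.99.

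Pair by pair the same structure was weak, and the part of sparse counts in this was not tested. Across thinned compartment cells the highest Pearson correlations of members were 0.373 and 0.344 for Pgk1 with Ldha, 0.366 and 0.309 for Bnip3 with Ldha, and 0.318 and 0.310 for Pkm with Ldha. In macrophages they were 0.448 and 0.380 for Vegfa with Mxi1 and 0.372 and 0.381 for Pgk1 with Pgam1. These correlations share library and cells and are given without a p. They join all clusters of a class, and the part of cluster make-up in them was not tested. With libraries joined, Mxi1 was at 433 and 345 CPM in macrophage clusters 0 and 3, where Vegfa was also highest. It was at 106 to 197 CPM in the others. The median over the 330 pairs of a target with a glycolysis gene was 0.0293 and 0.0232 in the compartment.

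Cells of the top 20% were not spread evenly over clusters. In the compartment they made up 43.4% and 27.3% of the cells of cluster 7, led by the heat-shock genes Cryab, Hspa1b and Bag3, and 32.1% and 33.1% of the Ifit-led cluster 15. In the SPP1 library the Fbxl7-led cluster 10 was highest at 37.2% (27.1% in the vector library). Cluster 9 stood at 29.5% there (17.4% in the vector library). Cells of the top 20% made up 0% and 4.90% of cluster 17, from 36 and 510 scored cells. In cluster 18 they made up 0% and 9.07%, from 33 and 397 scored cells. In cluster 4, also one-sided, they made up 9.84% and 19.7%, from 61 and 1510 scored cells. In macrophages they made up 39.5% and 48.8% of the Mmp9-led cluster and 2.08% and 2.90% of the Fcrls-led one.

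The library difference in the compartment was small and concentrated in a few targets. With the same ratio of 5 to 4 as the threshold for a call, 4 of 15 hypoxia targets were called lower in the SPP1 library and none higher, and the list's median log2 ratio was -0.17 beside 0.01 over all genes, of which 9.67% were called higher and 5.36% lower. Car9 was at 3.40 CPM in the SPP1 library against 4.98 (log2 ratio -0.55, -0.72 to -0.38). P4ha2 stood at 25.9 CPM against 32.7 (-0.34) and Egln3 at 25.9 against 32.5 (-0.33, -0.39 to -0.26). Adm had 29 against 54 UMIs (-0.88). Among members of at least 100 UMIs, the highest ratios were those of Ankrd37 (0.29), P4ha1 (0.22) and Slc2a3 (0.21), and none of these was called. Aldoc, with 31 against 18 UMIs, lay higher (0.80, -0.08 to 1.73) and was not called either.

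Of the 22 glycolysis and transport genes 1 was called, Slc16a1, at 27.7 CPM against 35.8 (-0.37, -0.43 to -0.31), and 13 lay below 0, with a median of -0.05. Hif1a was at 173 CPM against 203 (-0.23, -0.25 to -0.21) and, though not called, was lower in 14 of 14 clusters large enough to compare. Eno1 was lower in 12 of 14, and Tpi1, Slc16a3 and Kdm3a were higher in 12 of 14.

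Much of the compartment difference moved with the clusters that were nearly confined to the SPP1 library. Without clusters 4, 17 and 18 the median of the hypoxia targets was -0.03, none was called lower, and Ankrd37 was called higher at 0.41, where 10.1% of all genes were called higher and 3.19% lower. Egln3 was then at 32.9 CPM in both libraries and Car9 at 4.20 against 5.03 (-0.26, -0.44 to -0.09). P4ha2 and Slc16a1 kept log2 ratios of -0.22 and -0.30 without being called. The glycolysis median turned from -0.05 to 0.05, and Pgk1 from -0.05 to 0.10. Slc2a3 (0.38) and Aldoc (0.99) were then called higher, both from few UMIs.

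**Figure D5:**
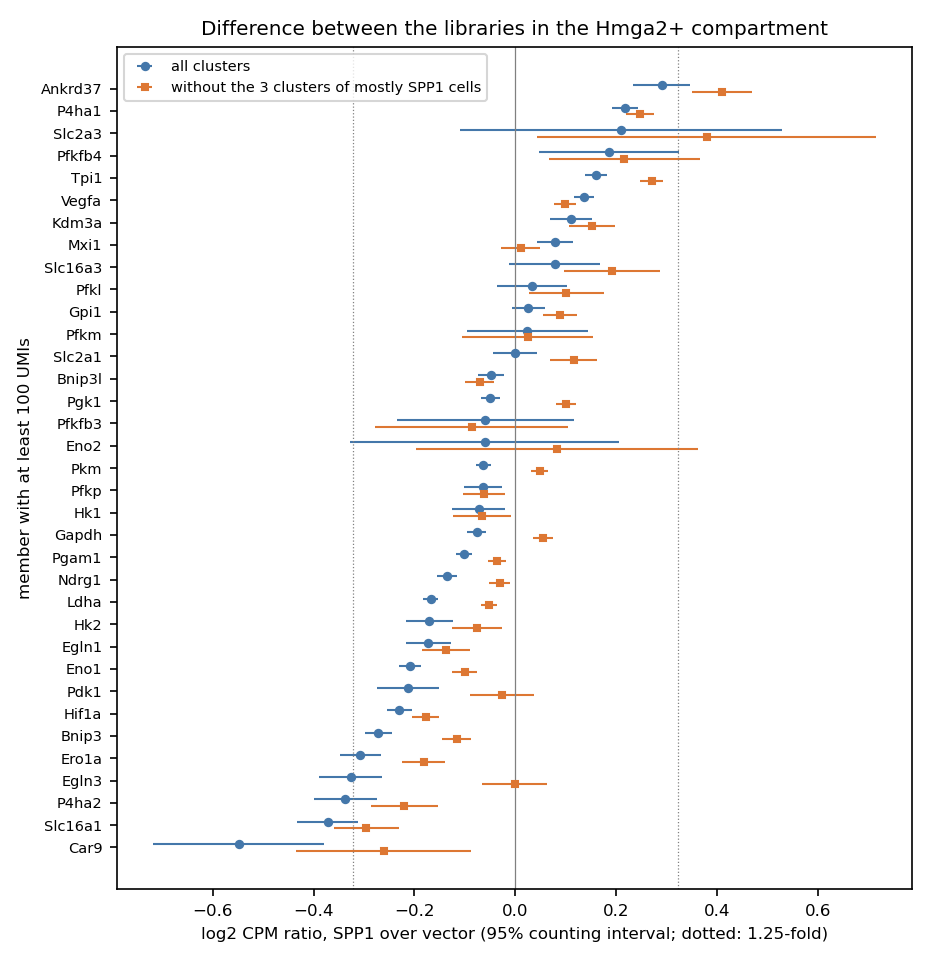
Log2 ratio of the SPP1 over the vector library in the compartment for the 35 members with at least 100 UMIs, with 95% intervals, over all clusters and without clusters 4, 17 and 18, and with dotted lines at a ratio of 5 to 4 each way. Car9, P4ha2, Egln3 and Slc16a1 lie beyond the lower line over all clusters, and Egln3 moves to -0.00 without the 3 clusters.

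Within single clusters the sign of Egln3 and Car9 varied. Egln3 was lower in the SPP1 library in 7 of 14 clusters and higher in 7. In the heat-shock cluster 7 it was at 25.5 CPM against 59.9, with Car9 at 5.35 against 14.4. In cluster 13 Egln3 was at 46.9 CPM against 27.1, and in cluster 11 Car9 was at 5.34 against 1.88. Of the other targets, P4ha2 was lower in 10 of 14 clusters, Ero1a and Egln1 in 11 of 14, and Ankrd37 was higher in 11 of 14.

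In macrophages the libraries differed in other members, and also in their clusters: the Plac8-led cluster 0 held 278 vector and 133 SPP1 cells and the Fcrls-led cluster 5 held 59 and 159. Ndrg1 was at 211 CPM in the former and 67.4 in the latter. Over the class, Ndrg1 was at 144 CPM against 192 (-0.41, -0.54 to -0.28) and Egln1 at 73.0 against 91.3 (-0.32, -0.51 to -0.14), the 2 of 15 hypoxia targets called, with a list median of -0.05 beside -0.02 over all genes. Hk1 was called higher at 49.2 CPM against 36.0 (0.45, 0.19 to 0.71) and Aldoc lower at 19.1 against 32.1 (-0.75, -1.10 to -0.40), of 21 glycolysis genes with a median of -0.01. Of all genes 8.16% were called higher and 8.35% lower. Hk2 was at 113 CPM against 91.9 and Vegfa at 392 against 481, and neither was called. Within 6 macrophage clusters Hk1 and Slc16a3 were higher in 6 of 6, Aldoc was lower in 6 of 6, and Ndrg1 and Egln1 were lower in 5 of 6. The within-cluster mean was -0.27 for Ndrg1, -0.26 for Egln1 and -0.11 for Vegfa (-0.29 over the class), all short of a ratio of 5 to 4. Proliferation genes moved with the library here, 15 of 16 being higher in the SPP1 library and 7 called, and their part in these values was not tested.

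In T and NK-like cells Ero1a (126 against 75.2 CPM, log2 ratio 0.75, 0.19 to 1.31), Tpi1 (233 against 175, 0.42) and Ldha (593 against 468, 0.34) were called higher in the SPP1 library and no member was called lower, where 6.21% of all genes were called higher and 12.8% lower. In cells thinned to 1000 UMIs none of the 3 was called, with log2 ratios of 0.53, 0.13 and 0.085. With predicted doublets kept 1 member was called higher and 1 lower, and under the stricter filter 4 and 1. Of the 58 Ero1a UMIs in the SPP1 library 37.9% came from 3 cells. Among members of at least 100 UMIs, the lowest ratios were those of Bnip3l (-0.49), Mxi1 (-0.40) and Eno1 (-0.25). The medians were -0.13 for 11 hypoxia targets and 0.13 for 17 glycolysis genes, beside -0.06 over all genes (0.13 and 0.19 for the lists in thinned cells), and 6 of 15 proliferation genes were called lower in the same cells.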

How the data were processed

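Each of the 2 libraries was deposited by the authors as a sparse matrix of UMI counts (genes by barcodes), whole numbers that had not been scaled. Per the submitters' processing notes, Cell Ranger 2.1.1 and GRCm39 were used. The annotation release, the treatment of reads shared by several genes and any prior doublet removal were not given in the sources used here. Barcodes were 20 bases long, and the chemistry was not settled. Group and treatment come from the labels.

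The cell filter asked for 300 genes, 500 UMIs and a mitochondrial share of no more than 15% (14243 and 13956 passed), and predicted doublets were removed (284 and 394), which left 13959 and 13562. Cells were clustered (2000 variable genes, 30 components, 20 neighbours, Leiden resolution 1) with scikit-learn 1.9.0, igraph 0.11.9 and leidenalg 0.10.2, and classes were named from 12 marker lists. Clusters of low UMIs (2069 and 1942 cells), mixed clusters (310 and 232) and small classes were not described. UMIs were summed per class and library in Python 3.11.15 with NumPy 2.4.6, SciPy 1.17.1 and pandas 2.3.3. CPM have exact Poisson intervals, log2 ratios conditional binomial ones and shares Clopper-Pearson ones. Coverage was checked for the log2 ratios alone, on simulated Poisson sums. Those follow the intervals' own model and leave out variation between cells, so they do not show coverage in real cells. No test was run, since each group has 1 library, cells were not used as replicates and no pairing of samples was used.

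Lists were described from members with at least 20 UMIs, and shares called over all genes from those with at least 100. Named in full were the 3 highest and 3 lowest library ratios per class among members of at least 100 UMIs, every isoform family, and the 5 highest and 5 lowest ratios along the score. The members and lists were chosen with earlier results of these data known. Alternatives were a stricter filter, doublets kept, clustering without the members, other totals, thinning, a median-of-ratios factor, one-sided clusters left out, within-cluster means, other UMI minimums, other scores and other folds. RefSeq promoters were matched by symbol, and no protein sequence was used here.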

Additional observations from a re-analysis of the deposited data

How the results depend on the processing

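No paired analysis was possible because each group has 1 library. The glycolysis median of the library difference in the compartment turned its sign where one-sided clusters were left out. As means of within-cluster ratios, more glycolysis members there lay above 0 than below. The hypoxia median of the library difference in T and NK-like cells turned its sign in thinned cells. Leaving out the compartment clusters with over 80% of their cells from 1 library gave a compartment median of -0.031 for the hypoxia targets and 0.054 for glycolysis, 0 members lower and 3 higher in the SPP1 library against 5 and 0, and a glycolysis median of 0.56 in macrophages over the compartment against 0.61. The compartment's hypoxia median was -0.11 in cells thinned to 1000 UMIs and -0.086 as a mean of within-cluster ratios, against -0.17. Thinning also gave 0.29 against 0.48 for the hypoxia targets in macrophages over the compartment, 0.837 against 1.33 percentage points for the Ldhb share, and 0 members higher in T and NK-like cells against 3. With predicted doublets kept 1 was higher and 1 lower there, and the stricter filter and clustering without the members each gave 1 lower, against 0. Clustering without the members gave 1 higher in the compartment. The glycolysis median along the score was 0.66 for the top 10% against 0.49. With folds chosen after seeing the data, 1.1-fold gave 13 lower and 4 higher in the compartment and 7 lower and 4 higher in macrophages, and 1.5-fold gave 1 lower in the compartment, 1 lower and 0 higher in macrophages and 1 higher in T and NK-like cells. Of all genes, 1.1-fold called 18.3% lower and 21.1% higher in the compartment and 16.2% and 13.3% in macrophages. At 1.5-fold the shares lower and higher were 1.49% and 4.06% in the compartment, 1.96% and 2.95% in macrophages and 6.89% and 2.99% in T and NK-like cells. Within-cluster means of macrophages were also chosen after seeing the data. T and NK-like cells, with 162 and 98 cells, limit single genes most.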

Other observations

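Genes outside the list were ranked by their ratio along the hypoxia score, with at least 50 CPM and by the smaller size of the 2 libraries, over 3635 genes in the compartment. The highest were Higd1a, Mt1, Mt2, Ankrd44, Fam162a, Ddit4, Aldoa, Pgm1, Vdr and Vldlr. Mt1, a metal-binding metallothionein, was at 3574 CPM in the top 20% of the vector library against 1538 in the rest, and at 3382 against 1463 in the SPP1 library. The lowest were Tk1, Pimreg, H1f5, Cdca3, Cdc20, Ccnb1, Pclaf, Birc5, Cep55 and Cenpa, most of them genes of DNA synthesis or mitosis. Tk1, thymidine kinase, was at 28.5 CPM against 67.7 and at 37.0 against 74.3.

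In macrophages, over 3376 genes, the highest were Tnfrsf9, Inhba, Chil3, Thbs1, Sgms2, Hilpda, Mmp13, Il7r, Gpnmb and Gpr35. Thbs1, the matricellular thrombospondin, was at 2158 CPM in the top 20% of the vector library against 735 and at 2425 against 697 in the SPP1 library, and Inhba, an activin subunit, at 202 against 34.8 and at 105 against 32.9. The lowest were Ccl12, Ch25h, Fcrls, P2ry12, Igfbp4, Ccl8, Col14a1, Hfe, Rrm2 and Uhrf1. Ccl12, a monocyte-attracting chemokine, was at 88.2 CPM against 514 and at 124 against 563. These are descriptions of 2 libraries, with no test.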
